A study of Arabidopsis thaliana with 4 samples.

Results

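The GASA genes (GIBBERELLIC ACID-STIMULATED IN ARABIDOPSIS) encode small secreted peptides with a C-terminal domain rich in cysteines. Transcripts of 10 of them were followed in sorted guard cells, namely GASA1 (AT1G75750), GASA2 (AT4G09610), GASA3 (AT4G09600), GASA4 (AT5G15230), GASA5 (AT3G02885), GASA6 (AT1G74670), GC1 (AT1G22690), GASA10 (AT5G59845), GASA11 (AT2G18420) and GASA14 (AT5G14920). They are 10 of the 33602 genes in the deposited table and were chosen by gene identifier, with the difference between the genotypes in these same libraries already known. Their values in that comparison are therefore given as a description, without p-values. The annotation describes 5 further genes as members of the gibberellin-regulated family (AT2G14900, AT2G39540, AT2G30810, AT3G10185 and AT1G10588), so that 15 genes of the family were looked up in all.

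Guard cells of fama-1 mutant seedlings carrying FAMA-LGK under the FAMA promoter (FAMA-LGK) were compared with guard cells of wild-type seedlings (WT), with 2 libraries of each genotype. FAMA is the transcription factor that drives the last step of guard cell formation, and the LGK form carries a changed retinoblastoma-related binding motif. The question put to the data is which transcripts distinguish guard cells called reprogrammed (FAMA-LGK) from those called fully differentiated (WT). All plants were 12 days post germination, and in both genotypes protoplasts of aerial tissue were made, from which a cell sorter recovered the guard cells. Neither the sort marker nor the number of transgenic lines is stated in the labels. The labels are also silent on whether both libraries of a genotype had separate plants as their source, so p-values rest on a spread that may be technical.

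Gibberellin promotes growth by binding GID1 receptors, which then bind DELLA proteins, repressors of growth, and lead them to destruction through the F-box protein SLY1. GAST1 of tomato and the first GASA genes of Arabidopsis were found as transcripts that respond to this hormone, although individual members respond to it in different directions. GASA peptides act in flowering, seed germination, organ growth and stress responses. GC1 is best known for its promoter, which is widely used to drive transgenes in guard cells.

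Values are TPM (a relative level that is corrected for the length of each gene and has the same total in every library). Guard cell identity was described with 13 marker genes, all of which were above 0 in each library. The vascular genes XCP1 and IRX3 and the trichome gene GL2 were too, so a value above 0 is no test of identity. The potassium channel gene GORK was at only 0.436 TPM in FAMA-LGK replicate 1. The summed level of the 13 markers was 2976 and 2628 TPM in FAMA-LGK libraries, against 17950 and 13846 TPM in WT libraries. Most of this sum was the myrosinase gene TGG1. The 6 vascular markers summed to 2.29 and 3.21 TPM in FAMA-LGK, against 1.58 and 2.04 TPM in WT, and none of the 4 trichome markers exceeded 0.578 TPM in any library. The 6 mesophyll markers summed to 281 and 307 TPM in FAMA-LGK, against 308 and 341 TPM in WT. Most of this sum was RBCS1A, at 203 and 212 TPM in FAMA-LGK, against 190 and 201 TPM in WT. LHCB6 alone among them was called lower, at a log2 difference of -0.95, where 6.14% of all genes tested were called lower. The mesophyll signal gene STOMAGEN was at 0 in 3 of the 4 libraries. The 5 epidermis markers summed to 326 and 277 TPM in FAMA-LGK, against 90.2 and 62.6 TPM in WT. Of these, 4 were called higher, where 6.45% of all genes tested were. Nuclear ribosomal RNA took 33.0% and 22.3% of TPM in FAMA-LGK, against 24.2% and 27.1% in WT. Organelle genes took 29.8% and 30.8% in FAMA-LGK, against 27.8% and 25.3% in WT, without overlap.

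Of the 10 members, 4 reached a mean of 1 TPM over the 4 libraries and could be tested, namely GC1, GASA4, GASA1 and GASA14. Among 33319 nuclear genes other than ribosomal RNA, counted from the most abundant, the WT ranks were 494 and 551 for GC1, 454 and 622 for GASA4, 1243 and 994 for GASA1, and 2214 and 4303 for GASA14. The other 6 members did not exceed 1.01 TPM in any library.

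**Figure D1:**
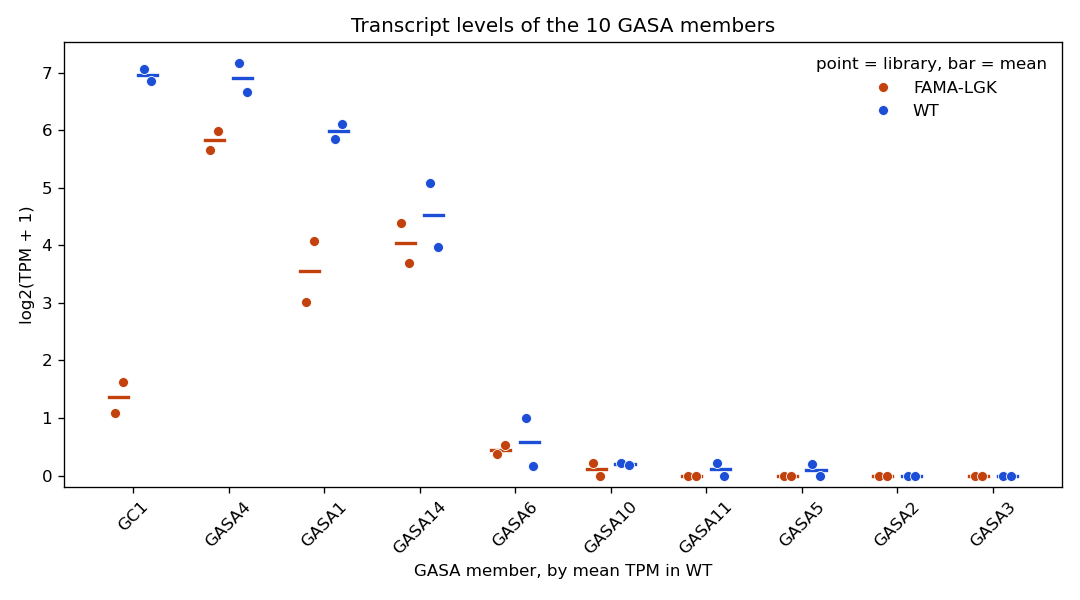
Transcript levels of the 10 GASA members as log2(TPM + 1), 2 libraries of each genotype (points) with their mean (bars), FAMA-LGK left of WT for each gene. GC1, GASA4 and GASA1 were lower in both FAMA-LGK libraries than in both WT libraries, GASA14 overlapped between genotypes, and the other 6 members were near 0.

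GC1, which encodes a peptide of 119 residues, was at 1.13 and 2.09 TPM in the FAMA-LGK libraries, against 132.7 and 114.2 TPM in the WT libraries. The genotypes did not overlap, and the 2 libraries within each genotype lay close together by comparison. The means were 1.61 ± 0.679 TPM in FAMA-LGK and 123.5 ± 13.1 TPM in WT (SD, n = 2 libraries each), 76.8-fold lower as a ratio of means. On the log2(TPM + 1) scale, which understates the change of low values, the difference was -5.60 (SE 0.26), the third most negative of 15143 genes tested (rank 3). No gene can fall on this scale by more than its log2(TPM + 1) in WT, so such a rank also depends on the WT level. The FAMA-LGK values correspond to an estimated 7 and 13 reads, against 838 and 819 reads in WT, so the level in FAMA-LGK rests on few reads. The rank of GC1 among nuclear genes was 14206 and 12573 in FAMA-LGK. A gene on the opposite strand, AT1G22700, shares 11 bases of exon with GC1, 1.44% of the GC1 exon length, and stood at 0.986 and 1.72 TPM in FAMA-LGK, against 0.807 and 0.639 TPM in WT. In bulk samples such as these, fewer cells with a transcript and less of it per cell cannot be told apart, which holds for each value below.

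GASA1, one of the first members described, was at 7.11 and 15.9 TPM in the FAMA-LGK libraries, against 56.8 and 67.8 TPM in the WT libraries. The genotypes did not overlap, but the 2 FAMA-LGK libraries differed from each other by more than the 2 WT libraries did in proportion. The means were 11.5 ± 6.19 TPM in FAMA-LGK and 62.3 ± 7.83 TPM in WT (SD, n = 2 each), 5.42-fold lower, with a log2 difference of -2.43 (SE 0.33). The estimated reads were 54 and 121 in FAMA-LGK, against 439 and 596 in WT.

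GASA4, which has been linked to flowering and the meristem, was at 49.7 and 62.2 TPM in the FAMA-LGK libraries, against 142.8 and 100.4 TPM in the WT libraries. It was lower in both FAMA-LGK libraries than in either WT library, but by less than GC1 or GASA1. The means were 56.0 ± 8.80 TPM in FAMA-LGK and 121.6 ± 30.0 TPM in WT (SD, n = 2 each), 2.17-fold lower, with a log2 difference of -1.09 (SE 0.24). At an estimated 353 and 443 reads in FAMA-LGK, against 1032 and 824 in WT, GASA4 was well covered in all libraries.

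GASA14, a regulator of leaf growth whose longest annotated product, of 275 residues, is the longest in the family, was at 20.0 and 12.0 TPM in the FAMA-LGK libraries, against 33.1 and 14.6 TPM in the WT libraries. The genotypes overlapped, and each showed a wide spread between its libraries. The means were 16.0 ± 5.71 TPM in FAMA-LGK and 23.8 ± 13.0 TPM in WT (SD, n = 2 each), with a log2 difference of -0.48 (SE 0.37), and without WT replicate 1 the GASA14 difference was 0.081, of the opposite sign.

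Of the 4 members tested, 3 were called lower, 0 higher and 1, GASA14, was not called (limma on log2(TPM + 1), adjusted p threshold 0.05), where 6.14% of all 15143 genes tested were called lower, 6.45% higher and 12.6% in either direction. Since the members were chosen with this comparison known, nothing is read from that count. Of all calls, 51.2% were higher in FAMA-LGK, against 67.1% after ribosomal RNA and organelle genes were taken out and 44.8% with median-ratio scaling. Removal of those genes moved the median log2 difference of all genes from 0.06 to 0.24, and the 4 members were then at -5.78 (GC1), -2.30 (GASA1), -0.91 (GASA4) and -0.30 (GASA14). Without WT replicate 1, and without WT replicate 2, limma called 0 of the 15143 genes, members included, with 2675 and 2365 genes at an unadjusted p under 0.05. The log2 differences in these fits were -5.49 and -5.70 for GC1, -2.56 and -2.30 for GASA1, -0.84 and -1.34 for GASA4, and 0.081 and -1.04 for GASA14. Without a minimum on expression GASA1 and GASA4 lost their calls. GASA4 also lost its call without FAMA-LGK replicate 1 and without a variance trend. As with the count, no ranking of the members is read from which calls were kept.

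The order of the members differed between the genotypes. In FAMA-LGK guard cells GASA4 came first, at 49.7 to 62.2 TPM, followed by GASA14 at 12.0 to 20.0 TPM and GASA1 at 7.11 to 15.9 TPM, whose ranges overlapped, and GC1 came last of the 4. In WT guard cells GC1, at 114.2 to 132.7 TPM, and GASA4, at 100.4 to 142.8 TPM, led with overlapping ranges, followed by GASA1 at 56.8 to 67.8 TPM and GASA14 at 14.6 to 33.1 TPM, neither of which overlapped its neighbours.

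Summed over the 15 genes of the family, transcripts came to 87.3 ± 11.7 TPM in FAMA-LGK and 332.5 ± 49.1 TPM in WT (SD, n = 2 libraries each). The make-up of this sum also differed. GC1 held 1.43% and 2.18% of it in the FAMA-LGK libraries, against 36.2% and 38.4% in the WT libraries. GASA4, although lower in TPM, held 62.9% and 65.0% of the family sum in FAMA-LGK, against 38.9% and 33.7% in WT. GASA1 held 8.99% and 16.6% in FAMA-LGK, against 15.5% and 22.8% in WT, and GASA14 25.4% and 12.5% in FAMA-LGK, against 9.01% and 4.91% in WT.

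**Figure D2:**
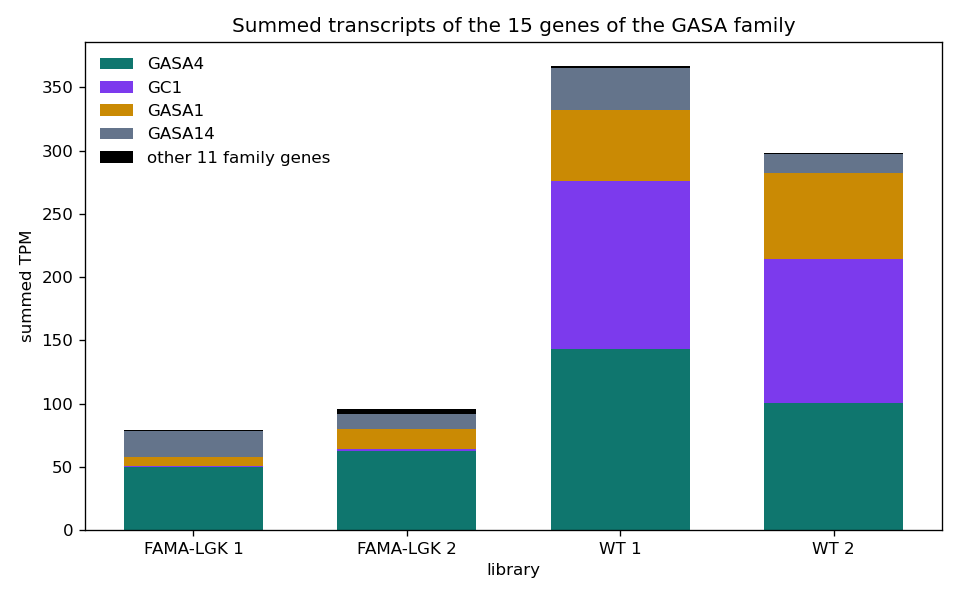
Summed TPM of the 15 genes of the GASA family in each library (bars), divided by gene, with FAMA-LGK libraries left of WT libraries. The sum was 79.1 and 95.6 TPM in FAMA-LGK, against 367 and 298 TPM in WT, and GC1 was nearly absent from the FAMA-LGK bars.

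The 6 members below the minimum were at or near 0 in both genotypes. GASA6, which acts in seed germination and elongation growth, was at 0.293 and 0.439 TPM in FAMA-LGK, against 1.01 and 0.127 TPM in WT, from an estimated 2 and 3 reads, against 7 and 1 reads. Of its exon length, 22.6% lies opposite exons of AT1G74675, not analysed here. GASA10 was at 0.160 and 0 TPM in FAMA-LGK, against 0.157 and 0.138 TPM in WT, with 1 estimated read in each library where it was found. GASA5, which has been linked to flowering time and heat tolerance, and GASA11 were found in WT replicate 1 only, at 0.147 and 0.167 TPM.

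GASA2 and GASA3, neighbouring genes on chromosome 4 known from seeds, were at 0 TPM in all 4 libraries. A count of 0 allows up to 3 reads. For scale only, 3 reads of GASA10, with 701 bases of exon, would be 0.470 TPM in WT replicate 1, where GASA10 itself was not at 0. The limit for GASA2 and GASA3, with 529 and 640 bases, was not computed. Of the 5 family genes outside the members, AT2G39540 and AT2G30810 were at 0 TPM throughout. AT2G14900 reached 0.128 TPM, in WT replicate 2, and AT1G10588 reached 0.294 TPM, in FAMA-LGK replicate 1.

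AT3G10185 stood apart among the low genes. It was at 0.308 and 3.06 TPM in the FAMA-LGK libraries, against 0.302 and 0.266 TPM in the WT libraries, or an estimated 1 and 10 reads, against 1 and 1 reads. The high value came from FAMA-LGK replicate 2 alone. Of its exon length, 30.6% lies opposite exons of AT3G10180, which was at 2.16 and 1.33 TPM in FAMA-LGK, against 0.469 and 0.217 TPM in WT. No source used here says whether reads were counted by strand, so reads of the shared stretch cannot be assigned to either gene.

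The GASA members were next set beside the 13 guard cell markers. The log2 difference of GC1, -5.60, was more negative than that of 12 of the 13 markers. Only TGG2, a myrosinase gene, was lower, at -6.62. The outward potassium channel gene GORK stood at -4.51, the inward channel gene KAT2 at -3.58 and the transcription factor gene SCAP1 at -2.53. GASA1, at -2.43, lay between SCAP1 and the anion channel gene ALMT12, at -2.16. GASA4, at -1.09, lay near the inward channel gene KAT1, at -1.16, which was not called. On this scale a gene cannot fall by more than its log2(TPM + 1) in WT, so this order also depends on the WT level. KAT1, at 5.97 and 4.20 TPM in WT, and GORK, at 37.3 and 46.8 TPM in WT, could not have reached -5.60. The same held for MYB60, SLAC1, OST1, HT1, ALMT12, CYP86A2 and SCAP1, none of which exceeded 46.8 TPM in WT. Only TGG1, TGG2, KAT2 and FAMA had a WT level that allowed such a fall. For the other markers, a smaller decrease than that of GC1 was fixed by the WT level. Of the 13 markers, 10 had a negative difference, 8 were called lower and 1, MYB60 at 1.78, was called higher. Over all genes tested 6.14% were called lower and 6.45% higher. The median log2 difference of the markers was -1.87, against 0.06 over all genes tested. CYP86A2, at 0.30, and OST1, at -0.20, were not called. FAMA itself was at 94.3 and 81.2 TPM in FAMA-LGK, against 66.1 and 65.6 TPM in WT, and was not called (log2 difference 0.40, limma adjusted p = 0.224). That value does not separate the mutant locus from the transgene. The epidermis markers moved the other way from GC1, GASA1 and GASA4, as given above, and their part in these differences was not tested.

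**Figure D3:**
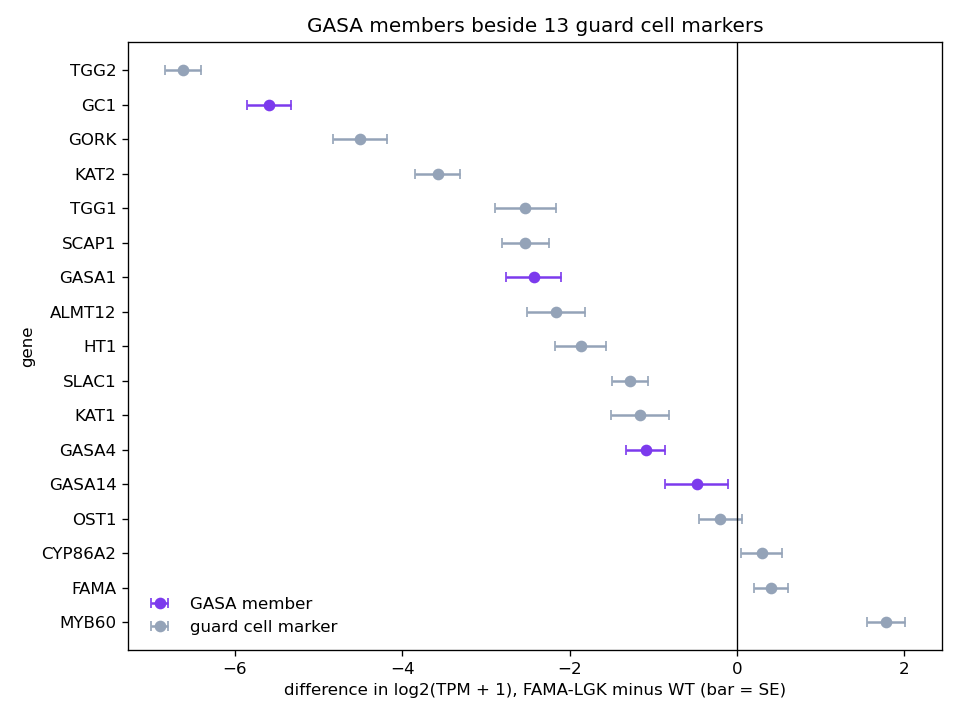
Difference in log2(TPM + 1), FAMA-LGK minus WT, of the 4 GASA members tested and 13 guard cell markers, ordered from the most negative at the top (points, bars are SE from the fit across all genes). GC1 lay second from the top at -5.60, between TGG2 and GORK, and GASA14 lay near OST1 close to 0.

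The genes tested whose levels were most like those of GC1, by Euclidean distance of log2(TPM + 1) over the 4 libraries, were the glutathione S-transferase gene GSTU8 (distance 1.12), RGLG3, annotated as a copine-family protein (1.22), AT5G25840, of a family with no known function (1.44), GAMMA-TIP, a water channel of the vacuole (1.46), and AT1G55210, a dirigent-like protein (1.67). GSTU8 was at 2.80 and 3.02 TPM in FAMA-LGK, against 96.2 and 82.9 TPM in WT. GAMMA-TIP was at 2.72 and 2.35 TPM in FAMA-LGK, against 63.5 and 75.0 TPM in WT. All 5 were thus high in both WT libraries and low in both FAMA-LGK libraries, as the measure of likeness requires. None of the 4 members tested had a positive log2 difference, so no such genes were sought for a member that was higher in FAMA-LGK.

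The gibberellin pathway was described through 36 genes of synthesis, inactivation, perception and signalling. Of these, 14 could be tested, with 2 calls of higher and 1 of lower expression in FAMA-LGK and 11 genes uncalled (limma, adjusted over all 15143 genes). The called share was 21.4% of the 14, against 12.6% of all genes tested, and the median log2 difference was 0.18, against 0.06. This list, too, was chosen with earlier results of these data known. Nothing is therefore read from that share, and the adjusted p-values of pathway genes are a description. All 3 calls were lost without WT replicate 1 and without WT replicate 2 when the same 15143 genes were tested, although GA2ox6 kept its call there when the minimum was taken over the 3 libraries left.

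Of the 5 genes of early synthesis, 3 passed the minimum, namely GA3, KAO1 and KAO2. GA3, the ent-kaurene oxidase gene, was at 43.3 and 49.8 TPM in FAMA-LGK, against 43.6 and 43.6 TPM in WT, and the libraries lay close together (log2 difference 0.09, SE 0.21, limma adjusted p = 0.822). KAO1, which acts in the step after GA3, was at 8.08 and 12.5 TPM in FAMA-LGK, against 8.62 and 9.34 TPM in WT. KAO2, of the same step, was at 0.929 and 3.90 TPM in FAMA-LGK, against 1.34 and 1.56 TPM in WT, with overlapping genotypes and no call. GA1, the gene of the first committed step, was at 0 in all 4 libraries, and GA2, the gene of the next step, was at 0.335 and 0.148 TPM in FAMA-LGK, against 0.110 and 0 TPM in WT. All 9 genes of the last steps, the GA 20-oxidases and GA 3-oxidases, lay below the minimum, and 6 of them were at 0 throughout. GA3ox4 reached 1.61 TPM, and GA3ox1 0.989 TPM, both in FAMA-LGK replicate 2, from an estimated 18 and 13 reads, against 1 read each in FAMA-LGK replicate 1.

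Inactivation genes went both ways. GA2ox6, an enzyme gene of the GA 2-oxidase class, was at 144.3 and 153.0 TPM in the FAMA-LGK libraries, against 10.3 and 14.4 TPM in the WT libraries. The genotypes lay far apart and the libraries of each close together. GA2ox6 rose by a log2 difference of 3.50 (SE 0.23, limma adjusted p = 2.5e-05), 12.0-fold as a ratio of means, and was higher in both FAMA-LGK libraries than in both WT libraries. Without WT replicate 1 its adjusted p was 0.0614, and without WT replicate 2 it was 0.0553, at log2 differences of 3.28 and 3.72.

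GA2ox2, of the same enzyme class, was at 0.257 and 0.0512 TPM in FAMA-LGK, against 4.24 and 3.02 TPM in WT, from an estimated 5 and 1 reads, against 84 and 68 reads. It fell by 2.00 on the log2 scale (SE 0.40, limma adjusted p = 0.0113), at a low level, and was 23.6-fold lower as a ratio of means. With a pseudocount of 0.1 TPM the log2 difference of GA2ox2 was -3.99. GA2ox2 was not called without a minimum on expression (limma adjusted p = 0.0572). GA2ox8 was at 1.63 and 0.896 TPM in FAMA-LGK, against 1.53 and 4.74 TPM in WT, with overlapping genotypes and no call.

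The receptors and the growth repressors gave no call. GID1B was the most abundant receptor transcript, at 78.7 and 65.1 TPM in FAMA-LGK, against 68.8 and 54.2 TPM in WT, and the genotypes overlapped (log2 difference 0.23, limma adjusted p = 0.551). GID1A was at 2.26 and 8.13 TPM in FAMA-LGK, against 6.55 and 4.72 TPM in WT. GID1C was at 2.59 and 6.31 TPM in FAMA-LGK, against 4.30 and 5.48 TPM in WT. Both of these receptors were low in FAMA-LGK replicate 1 and high in replicate 2, so that the genotypes overlapped.

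Of the 5 DELLA genes only RGA passed the minimum, at 4.88 and 5.73 TPM in FAMA-LGK, against 5.20 and 3.68 TPM in WT (log2 difference 0.22, limma adjusted p = 0.690). The other 4, GAI, RGL1, RGL2 and RGL3, did not exceed 0.459 TPM. SLY1, the F-box gene, was at 2.68 and 4.11 TPM in FAMA-LGK, against 0.507 and 1.78 TPM in WT, without overlap but also without a call (log2 difference 1.08, SE 0.43, limma adjusted p = 0.129).

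SEC, which encodes an O-GlcNAc transferase that modifies DELLA proteins, was at 95.3 and 117.1 TPM in FAMA-LGK, against 52.8 and 58.0 TPM in WT. It was higher in both FAMA-LGK libraries than in both WT libraries, and rose by a log2 difference of 0.92 (SE 0.21, limma adjusted p = 0.0195), 1.92-fold as a ratio of means. SEC lost its call without FAMA-LGK replicate 2 (limma adjusted p = 0.0595), without a variance trend (0.0819) and without a minimum on expression (0.0729). Its counterpart SPY, which adds fucose to the same proteins, was at 3.85 and 3.33 TPM in FAMA-LGK, against 2.54 and 3.46 TPM in WT, and was not called. SCL3, a positive regulator of the response, was at 4.03 and 4.61 TPM in FAMA-LGK, against 8.50 and 5.57 TPM in WT, without overlap and without a call (log2 difference -0.57, limma adjusted p = 0.269).

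**Figure D4:**
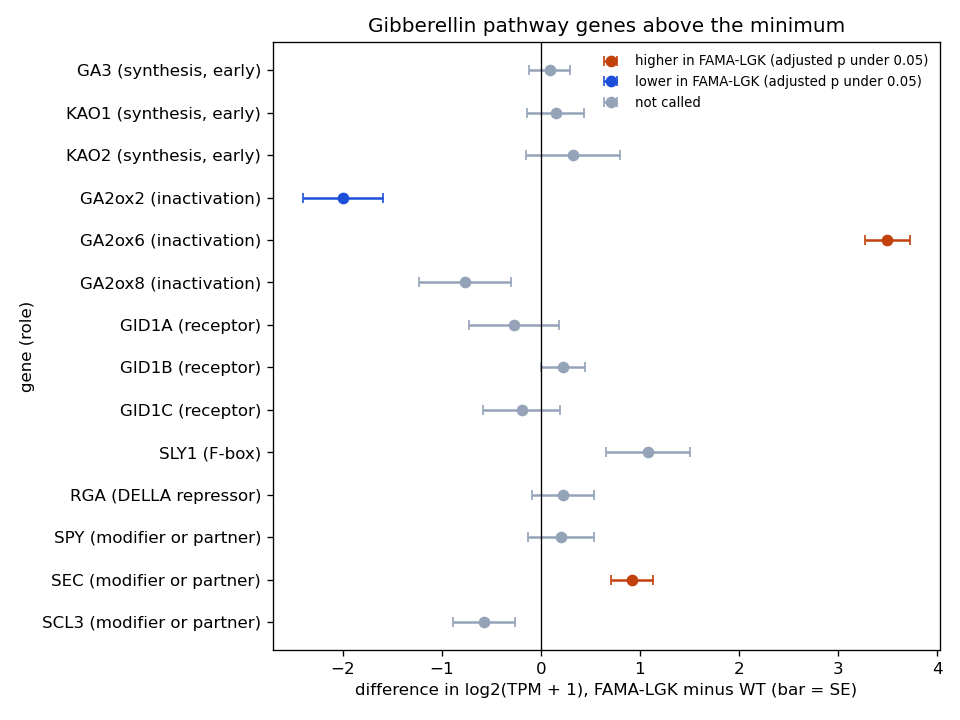
Difference in log2(TPM + 1), FAMA-LGK minus WT, of the 14 gibberellin pathway genes that could be tested, grouped by role (points, bars are SE from the fit across all genes). GA2ox6 at 3.50 and SEC at 0.92 were called higher, GA2ox2 at -2.00 was called lower, and the receptors and RGA lay near 0.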

How the data were processed

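RNA of sorted guard cells was sequenced in 4 libraries, 2 per genotype. Per the labels, the authors counted reads in 33602 genes with HTSeq-count and deposited them as TPM. The submitters' processing notes name CASAVA 1.8.2, Bowtie2, HTSeq and the TAIR10 build. How gene lengths, strand and multiple matches were handled is not stated there. Gene names, exon lengths and neighbours came from TAIR10.1, which named 32835 of the genes; its build has another name, so no coordinates or sequences are printed, and names of 3 members (GC1, GASA10, GASA11) came from the list of members.

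The test was limma (3.58.1, under R 4.3.3) on log2(TPM + 1), with eBayes, a trend, no covariate and two-sided p-values. These were adjusted by Benjamini-Hochberg across the 15143 genes averaging 1 TPM or more, with a threshold of 0.05. The fit was tested on simulated data with large changes planted outside the low genes. That test does not cover small changes or low genes. Exact permutation of 2 against 2 libraries allows no two-sided p under 0.333 and was not used.

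TPM holds no library total, so total depth is unknown. The value of 1 read relative to WT replicate 1, taken from the commonest ratio of low values, was 0.880 in WT replicate 2, 1.02 in FAMA-LGK replicate 1 and 1.01 in FAMA-LGK replicate 2. Estimated reads are the smallest read numbers that fit a gene's values within 0.005 of a whole number. They may be short by a common factor, and they and the limit of 3 reads cover counting error only. The TPM of 1 read times the exon length should be nearly the same for each gene. In WT replicate 1 it ran from 98.3 (GASA1) to 152.9 (AT3G10185), so the estimated reads and the TAIR10.1 exon lengths do not match closely.

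The members and lists were chosen with earlier results of these data known. Named are all 15 family genes, the pathway genes called, the receptors, F-box and DELLA genes above the minimum, and the 5 genes nearest to GC1; others were named after their values were seen. Alternatives were another pseudocount (0.1), no minimum or 5 TPM, median-ratio scaling, removal of ribosomal RNA and organelle genes, no variance trend, a replicate block and leaving out each library. Figures used Python 3.11.15 and matplotlib 3.10.9.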

Additional observations from a re-analysis of the deposited data

How the results depend on the processing

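GC1, GASA1 and GASA4 were lower in FAMA-LGK under all 15 alternatives, with log2 differences of -6.23 to -5.33, -2.96 to -1.90 and -1.34 to -0.84. Most of these alternatives could not give another sign. The minimum, the variance trend and the replicate block leave a gene's log2 difference unchanged. As the genotypes did not overlap for these members, leaving out 1 library could not reverse it either. The largest decrease of GC1 came with a pseudocount of 0.1 TPM. GASA14 ranged from -1.04 to 0.081 and had a positive sign without WT replicate 1. Leaving out 1 library gave GID1A -1.01 to 0.47 and GID1C -0.71 to 0.32, both positive without FAMA-LGK replicate 1. Without a minimum 511 genes were called in place of 1907, 1 gibberellin pathway gene in place of 3 and 1 GASA member in place of 3. Leaving out 1 library with the tested genes held gave 0 to 1685 genes and 0 to 3 pathway genes. With the minimum taken over the 3 libraries left, an alternative chosen after seeing the data, 72 genes were called without WT replicate 1, 33 without WT replicate 2 and up to 1915 in the other fits, with 1 to 3 pathway genes, and GA2ox6 kept its call without WT replicate 1 (limma adjusted p = 0.0308) and without WT replicate 2 (0.0426). Such fits take the spread of a lone library from that of the other genotype. The labels give the 2 genotypes the same replicate numbers but do not say that these pair the samples. Deviations of same-numbered libraries correlated at 0.078 over genes, and the replicate block called 2844 genes and 3 pathway genes. That block leaves little information on the spread of each gene, so its larger count leans on a spread pooled over genes. Its lowest limma adjusted p, 6.86e-139, is not credible at this number of libraries. Depth limits the low values, such as the estimated 7 and 13 reads of GC1 in FAMA-LGK.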
